A study of Homo sapiens with 6 samples.

Results

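The genes described here are the small heat shock proteins, led by CRYAB, the HSP70 and HSP90 chaperones, their partner proteins, the heat shock factors and the chaperonins: 49 genes chosen by name. Of these, 42 had a probe set of their own on the array, out of 18377 genes tested. HSPA1A, HSPA1B, HSPB2 and FKBP5 were read only by probe sets annotated to several genes. HSPB11, AHSA1 and HSF2 had no named probe set and were not analysed here. Where a gene had several probe sets of its own, the brightest over all 6 arrays stood for it. The set was put together with the rise of CRYAB in these same arrays in view, so its values below are a description and not independent evidence.

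The RNA came from TF-1, a human myeloid leukaemia line of erythroid character that depends on a cytokine, grown with interleukin-3 and fetal bovine serum. Cells transfected with human PRL-3, the phosphatase encoded by PTP4A3, gave 3 arrays (numbers 4, 5 and 6), and cells transfected with a pEGFP control vector gave 3 arrays (numbers 1, 2 and 3). The series asked about the part of PRL-3 in leukaemia. The labels name neither clones, pools nor separate cultures or transfections. The p-values below therefore cover array-to-array spread alone, part or all of which may be technical.

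Values are log2 of the deposited probe set intensity. Median intensity per array was 89.8 to 90.6 in the PRL-3 arrays and 90.0 to 92.9 in the control arrays. PTP4A3 read 10.81, 10.93 and 10.79 in the PRL-3 arrays, against 7.92, 8.03 and 7.97 in the control arrays, a rise of 2.87 ± 0.072 (SE, limma). As a rough check only, since probes of different genes do not share a scale, markers were set against the median gene in control arrays. Of 11 measured markers of the line 10 were brighter, with IL3RA the exception. Of 9 markers of other cell types 6 were dimmer, while PECAM1, DES and COL1A1 were brighter. Between groups 2 of the 11 line markers rose, KIT by 1.01 and CSF2RA by 0.27 (adjusted p = 0.000721 and 0.0407, limma), and 0 fell. By the same rule, adjusted p under 0.05, 4.58% of all genes rose and 3.11% fell. Of the 11 markers 6 were below 0, to -0.57 for CSF2RB, and the median difference of the 11 was -0.08. The part of these markers in the results below was not tested.

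Chaperones keep other proteins from clumping and help them fold. Small heat shock proteins hold unfolded proteins without using ATP, HSP70 proteins bind and release them in cycles that J-domain proteins start and nucleotide exchange factors end, and HSP90 finishes kinases and steroid receptors with a set of cochaperones. Under proteotoxic stress the transcription factor HSF1 binds inverted GAA and TTC blocks, the heat shock element, and raises many of these genes together. Erythroid cells use HSP70 in protecting the factor GATA1.

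Heat shock elements were looked for in promoters because HSPA6, which rose as CRYAB and HSPA4L did, is a classical HSF1 target. The windows are the 250 bases before the gene start, from RefSeq on GRCh38.p14, and each is given 5′ to 3′ on the strand of its gene. Capitals mark every match to the 2-block motif GAANNTTC or TTCNNGAA. Each of these motifs reads alike on both strands, and overlapping matches run together. The 3-block motif is GAANNTTC followed by NNGAA, or TTCNNGAA followed by NNTTC, which are each other's reverse complement. HSPA6 is shown because it rose, and HSPA1A, HSPA8 and HSP90AA1 because they are its best known relatives and partners and did not pass the test.
HSPA6 (chr1:161524290-161524539, plus strand): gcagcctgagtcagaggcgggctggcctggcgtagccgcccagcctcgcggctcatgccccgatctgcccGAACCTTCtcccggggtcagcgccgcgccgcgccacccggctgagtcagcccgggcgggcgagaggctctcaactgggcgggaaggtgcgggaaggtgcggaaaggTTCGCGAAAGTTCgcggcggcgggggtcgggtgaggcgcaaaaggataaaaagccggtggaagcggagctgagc
HSPA1A (chr6:31815293-31815542, plus strand): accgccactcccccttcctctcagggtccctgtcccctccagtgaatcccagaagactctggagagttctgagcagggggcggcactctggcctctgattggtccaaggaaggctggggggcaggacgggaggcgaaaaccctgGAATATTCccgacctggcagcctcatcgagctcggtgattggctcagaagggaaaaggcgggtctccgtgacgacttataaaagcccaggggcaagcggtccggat
HSPA8 (chr11:123062137-123062386, minus strand): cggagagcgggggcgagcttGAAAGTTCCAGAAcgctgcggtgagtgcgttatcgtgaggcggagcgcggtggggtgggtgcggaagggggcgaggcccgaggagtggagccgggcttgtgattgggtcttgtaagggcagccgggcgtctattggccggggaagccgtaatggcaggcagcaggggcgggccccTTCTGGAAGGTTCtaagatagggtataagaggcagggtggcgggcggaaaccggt
HSP90AA1 (chr14:102087045-102087294, minus strand): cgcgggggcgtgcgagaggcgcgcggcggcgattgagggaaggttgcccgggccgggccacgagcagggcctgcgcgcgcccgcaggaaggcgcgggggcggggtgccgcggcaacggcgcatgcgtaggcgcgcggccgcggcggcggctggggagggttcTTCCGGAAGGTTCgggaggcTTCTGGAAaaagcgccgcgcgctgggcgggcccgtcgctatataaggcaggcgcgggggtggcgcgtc

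The HSPA6 window held 1 match to the 3-block motif, which began 74 bases before the gene start. The HSPA8 window held 2 such matches and the HSP90AA1 window, 1 of 2 for that gene, held 1. The HSPA1A window held 1 match to the 2-block motif and 0 to the longer one. RefSeq gave windows for 43 of the 49 genes, not for CRYAB, HSPB2, HSPB11, HSPA14, FKBP4 and HSF1. The 3-block motif was found in at least 1 window of 6 of these 43, namely HSPA6, HSPA8, HSPD1, HSP90AA1, HSP90AB1 and DNAJB6, and in 0.557% of all 27305 genes with a window. The 2-block motif was found in 18 of the 43 and in 14% of all genes. Only HSPA6 of the 6 genes with the longer motif passed the test described next. A match is a description of the letters and not of binding. Only exact blocks were counted, so a window without a match may still hold an imperfect element.

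CRYAB, whose difference brought the set together, is described by its values alone. Among the other 41 genes HSPA6 and HSPA4L rose with PRL-3, 2 of 41 or 4.88%, and 0 fell, at adjusted p under 0.05 in limma over all genes. Over all genes tested 4.58% were higher and 3.11% lower by the same rule, so the share that rose was near the background. Without HSPA6 as well, 1 of 40 rose, or 2.5%. At an unadjusted p under 0.05 the counts among the 41 were 6 higher (14.6%) and 4 lower (9.76%) in limma, against 10.6% and 9.6% of all genes, which also stand behind the counts of this kind given by role below. The median difference over all 42 genes with CRYAB was 0.058 on the log2 scale, against -0.015 over all genes, and 39 of the 42 differed by less than 0.5. All PRL-3 arrays lay above all control arrays in 8 of the genes and below them in 6, where all genes gave 12.1% and 12.2%. Since RNA of whole cultures was measured, more cells with a transcript and more of it per cell cannot be told apart. The plot of differences by role shows CRYAB and HSPA6 far from the rest.

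**Figure D1:**
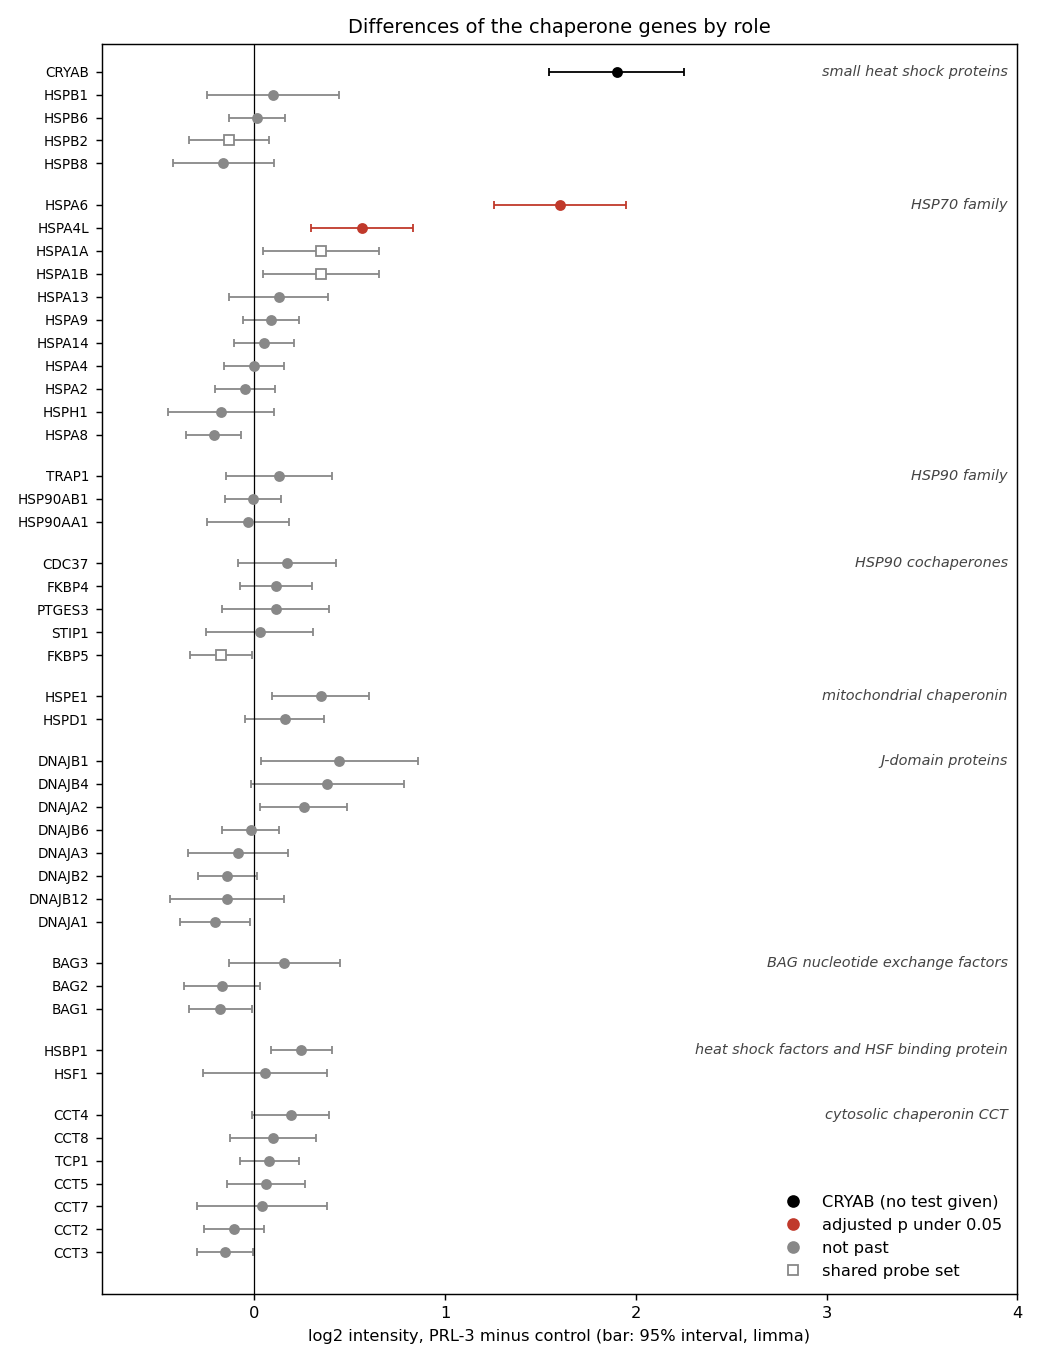
Log2 differences, PRL-3 minus control, of the 46 chaperone genes with a value, grouped by role, with 95% intervals from limma (3 arrays each). HSPA6 (1.60) and HSPA4L (0.56), in red, are past the threshold. CRYAB (1.90), in black, is shown without a call, and its interval is a description and not a test. Open squares are probe sets shared with other genes, and HSPA1A and HSPA1B are the same probe set.

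CRYAB encodes alpha B-crystallin, a small heat shock protein of lens and muscle that is induced by stress in many cells. It read 7.70, 7.22 and 7.85 in the PRL-3 arrays, against 5.58, 5.68 and 5.81 in the control arrays. The groups were far apart: the lowest PRL-3 array, number 5, was well above the highest control array, number 3. The mean level was 7.59 ± 0.328 in PRL-3 arrays and 5.69 ± 0.117 in control arrays (SD, n = 3 each), a difference of 1.90 ± 0.153 (SE) or 3.73-fold. No p is given, because this difference is what brought CRYAB into the set. The difference ranked 9 among the rises of all genes, and leaving out 1 array at a time gave 1.77 (without PRL-3 6) to 2.08 (without PRL-3 5). Rank and range both describe the values that chose CRYAB and are not independent evidence of a rise. The table has no detection call to set a floor for the control level.

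The other small heat shock proteins did not share the rise. HSPB1, the main small heat shock protein of most dividing cells, read 7.69, 8.15 and 7.77 in PRL-3 arrays, against 8.03, 7.73 and 7.56 in control arrays. The groups overlapped throughout, with a difference of 0.10 and a 95% interval of -0.25 to 0.44 (adjusted p = 0.804, limma). HSPB6, a muscle and heart form, differed by 0.01 (adjusted p = 0.952), and HSPB8, which works with BAG3 in clearing misfolded proteins, by -0.16 (adjusted p = 0.523, limma).

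HSPB2, the muscle gene that lies next to CRYAB head to head, was read by a probe set shared with a readthrough transcript. It read 5.79, 5.79 and 5.76 in PRL-3 arrays, against 5.89, 5.76 and 6.08 in control arrays. These levels overlapped, and the difference was -0.13 with a 95% interval of -0.34 to 0.08 (adjusted p = 0.568, limma over all 28869 probe sets). In that fit 4.85% of probe sets passed, 2.87% higher and 1.98% lower, and 0 of the 4 genes known only from shared probe sets did. HSPA1A and HSPA1B, which are the same probe set, and FKBP5 had an unadjusted p under 0.05 (0.0301 and 0.0373, limma). The share of all probe sets under that unadjusted p was not taken.

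Of the 12 measured genes nearest to CRYAB in the RefSeq order, 6 on each side, 1 rose and 0 fell, where 4.58% and 3.11% of all genes did. The gene that rose was DIXDC1, a regulator of WNT signalling and the next measured gene on one side, at 0.43 ± 0.071 (SE, adjusted p = 0.00992, limma). The measured gene next to CRYAB on the other side, CFAP68, differed by -0.25 (adjusted p = 0.09, limma), and the other 10 ran from -0.22 to 0.14.

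**Figure D2:**
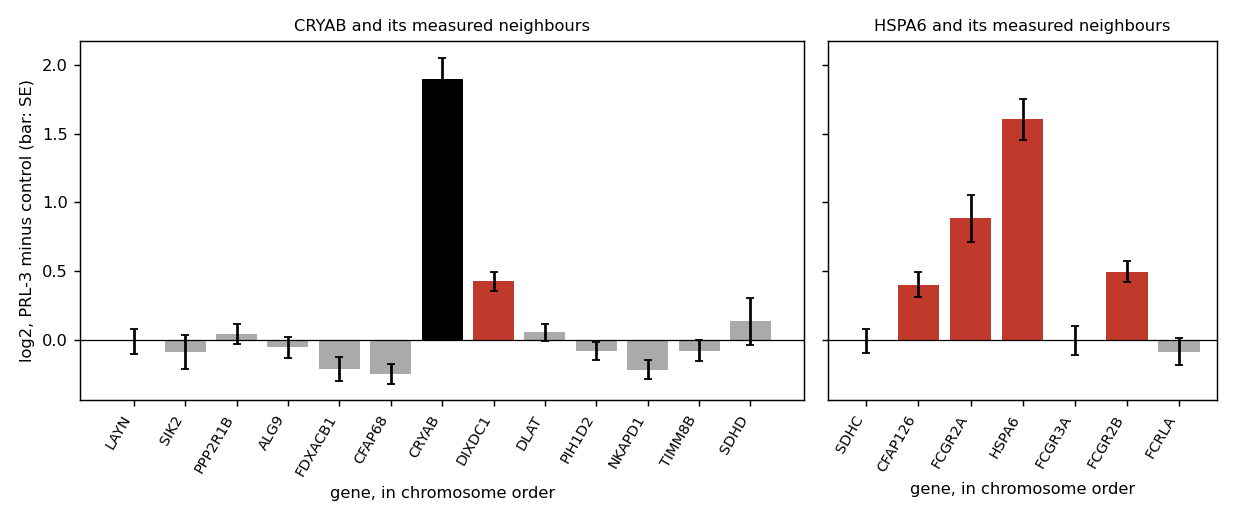
Log2 difference, PRL-3 minus control, with SE from limma, of CRYAB (left) and HSPA6 (right) and the measured genes on either side in chromosome order; red bars are past adjusted p 0.05 and CRYAB, in black, is shown without a call. CRYAB at 1.90 stands beside DIXDC1 at 0.43, while HSPA6 at 1.60 lies between FCGR2A at 0.89 and FCGR2B at 0.50, with FCGR3A at -0.0045.

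HSPA6 encodes a human HSP70 that is hardly made without stress and is absent from mice. It read 8.78, 9.38 and 8.87 in PRL-3 arrays, against 7.48, 7.45 and 7.30 in control arrays. The groups did not overlap, and array 5 was the highest PRL-3 array here, whereas for CRYAB it was the lowest. The difference was 1.60 ± 0.15 (SE), or 3.04-fold, with adjusted p = 0.000933 in limma. Leaving out 1 array at a time gave 1.42 (without PRL-3 5) to 1.72 (without PRL-3 4), with adjusted p of at most 0.0111.

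A dispute between probe sets limits the HSPA6 value. The probe set annotated to both HSPA6 and HSPA7, a near-identical pseudogene, read 7.79, 8.70 and 8.16 in PRL-3 arrays, against 8.31, 8.01 and 8.06 in control arrays. These groups overlapped, with a difference of 0.09 ± 0.217 (SE, adjusted p = 0.913, limma over all probe sets), and the sign turned to -0.15 without PRL-3 5. Which transcript each probe set reads was not tested. HSPA6 lies among the genes for Fc receptors of immunoglobulin G, and 3 of its 6 nearest measured genes rose too, where 4.58% of all genes did. The comparison with neighbours was added after the HSPA6 value was seen. FCGR2A, the next gene, rose by 0.89 ± 0.17 (adjusted p = 0.0191), FCGR2B, an inhibitory receptor, by 0.50 ± 0.079 (adjusted p = 0.00846), and CFAP126 by 0.40 ± 0.093 (SE, adjusted p = 0.0377, limma). FCGR3A, on the other side of HSPA6, differed by -0.0045 (adjusted p = 0.989, limma). The part of these neighbours in the HSPA6 signal was not tested.

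HSPA4L, an HSP110 protein that acts as a nucleotide exchange factor of HSP70 and is known from the testis, read 10.75, 10.44 and 10.75 in PRL-3 arrays, against 9.89, 10.17 and 10.18 in control arrays. The groups stood apart, with array 5 lowest in the PRL-3 group and array 1 lowest in the control group. It rose by 0.56 ± 0.117 (SE, 1.48-fold, adjusted p = 0.0252, limma). The call was lost without control 1 (adjusted p = 0.063), control 2 (0.0802), PRL-3 4 (0.109) or PRL-3 6 (0.104), with differences of 0.47 to 0.67 over all 6 fits. The other HSP110 proteins did not follow: HSPA4 differed by -0.0012 with a 95% interval of -0.16 to 0.16, and HSPH1 by -0.17 with an interval of -0.45 to 0.10 (adjusted p = 0.995 and 0.512, limma).

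The stress-inducible HSP70 genes HSPA1A and HSPA1B are near copies and cannot be told apart here. Their brightest shared probe set read 9.62, 9.89 and 9.61 in PRL-3 arrays, against 9.58, 9.35 and 9.15 in control arrays. The PRL-3 arrays lay above the control arrays by a narrow gap to control 1. The difference was 0.35 ± 0.129 (SE, adjusted p = 0.221, limma over all probe sets). Its adjusted p was under the threshold when arrays were weighted (0.0483) or the within-group direction was a covariate (0.00624), both in limma. Another bright probe set of the same annotation gave 0.37 with the groups apart, and the 3 dimmer ones gave 0.23 to 0.24 with the groups overlapping.

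HSPA8, the constitutive HSP70 of the cytosol, read 12.49, 12.48 and 12.45 in PRL-3 arrays, against 12.65, 12.70 and 12.71 in control arrays. Every PRL-3 array was below every control array, and the difference of -0.21 ± 0.063 (SE) had adjusted p = 0.0862 in limma, which did not pass. It was the most negative difference in the set. HSPA9, the mitochondrial HSP70, differed by 0.09, HSPA13 by 0.13, HSPA14, which works at the ribosome, by 0.05, and HSPA2, a testis form, by -0.05, all with adjusted p of 0.531 or more in limma. In the HSP70 family as listed, HSPA4L and HSPA6 were thus the 2 of 9 that rose, each with the limits given above. Among all genes 4.58% rose by the same rule.

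**Figure D3:**
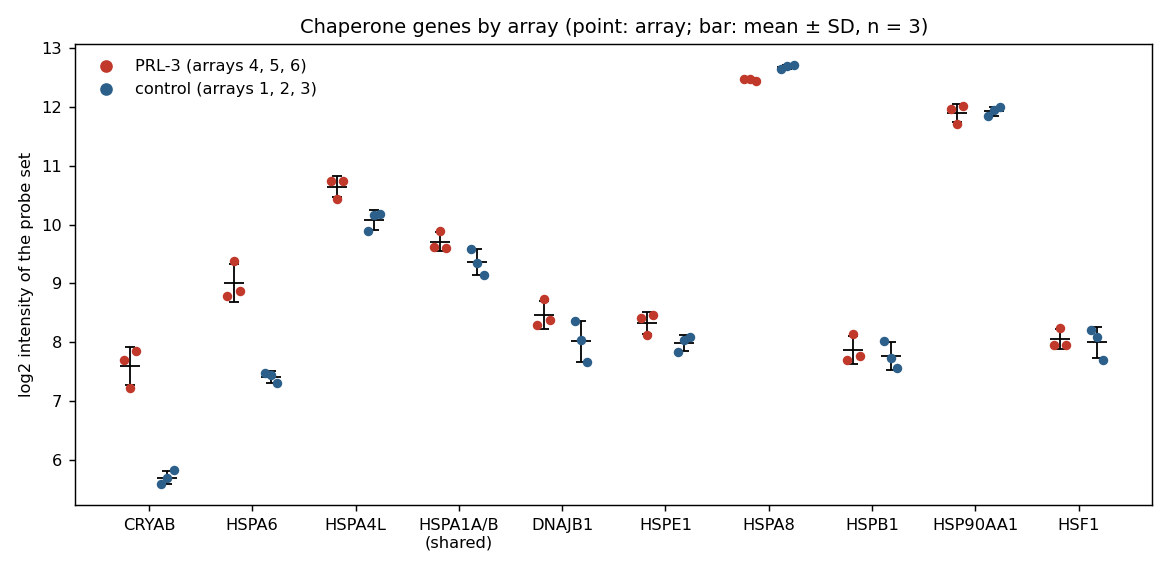
Log2 intensity of the probe set of 10 chaperone genes in each PRL-3 array (red) and each control array (blue), with the mean and SD of 3 arrays; levels of different genes are not comparable, since each has its own probes. CRYAB, HSPA6 and HSPA4L are higher in every PRL-3 array, and so, by narrow gaps, are HSPE1 and the shared HSPA1A and HSPA1B probe set. HSPA8 is lower in every PRL-3 array, and HSPB1, HSP90AA1, DNAJB1 and HSF1 overlap.

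None of the 3 HSP90 genes passed in either direction in limma, and 0 had an unadjusted p under 0.05. HSP90AA1, the inducible cytosolic form, read 11.97, 11.72 and 12.01 in PRL-3 arrays, against 11.85, 11.95 and 12.00 in control arrays. HSP90AB1, the constitutive form, read 12.26, 12.29 and 12.22 in PRL-3 arrays, against 12.29, 12.24 and 12.26 in control arrays. Both overlapped, and the 95% intervals of the differences were -0.25 to 0.18 for HSP90AA1 and -0.15 to 0.14 for HSP90AB1 (adjusted p = 0.91 and 0.974, limma). TRAP1, the mitochondrial HSP90, differed by 0.13 (adjusted p = 0.654), and its dimmer probe set by -0.06.

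Cochaperones of HSP90 gave the same counts: 0 of 4 with their own probe set passed in either direction in limma, and 0 had an unadjusted p under 0.05. CDC37, which brings kinases to HSP90, was the most changed at 0.17 (adjusted p = 0.478, limma). STIP1, which joins HSP70 to HSP90, PTGES3, the p23 protein, and FKBP4, a receptor immunophilin, differed by 0.03 to 0.11. FKBP5, an immunophilin gene best known as a glucocorticoid target, was read by a shared probe set at 9.21, 9.26 and 9.13 in PRL-3 arrays, against 9.43, 9.40 and 9.29 in control arrays. The groups were apart, but the difference of -0.17 ± 0.068 (SE) did not pass (adjusted p = 0.248, limma over all probe sets).

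In mitochondria HSPD1 and HSPE1, the chaperonin and its lid, are made from neighbouring genes. HSPE1 read 8.41, 8.12 and 8.47 in PRL-3 arrays, against 7.83, 8.04 and 8.08 in control arrays. These groups were just apart, with a difference of 0.35 ± 0.112 (SE, adjusted p = 0.115, limma), which passed only without PRL-3 5 among the fits that left out 1 array (0.45, adjusted p = 0.0336). HSPD1 read 11.38, 11.19 and 11.48 in PRL-3 arrays, against 11.12, 11.20 and 11.26 in control arrays, and overlapped through array 5. Its difference was 0.16 (adjusted p = 0.39, limma).

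J-domain proteins, which hand substrates to HSP70, passed in 0 of 8, with 2 higher and 1 lower at an unadjusted p under 0.05 in limma. DNAJB1, the main HSF1-induced J-domain protein, read 8.28, 8.73 and 8.37 in PRL-3 arrays, against 8.35, 8.03 and 7.66 in control arrays. Control 1 lay within the PRL-3 range, and the difference of 0.45 ± 0.179 (SE) had adjusted p = 0.207 in limma. DNAJB4 followed at 0.38 (adjusted p = 0.273) and DNAJA2 at 0.26 (adjusted p = 0.183). DNAJA1, a partner of HSPA8, was at -0.20 (adjusted p = 0.196, limma) with every PRL-3 array below every control array. DNAJA3, DNAJB2, DNAJB6 and DNAJB12 differed by -0.14 to -0.02.

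The BAG proteins, which release substrates from HSP70, gave 0 of 3 past the threshold and 1 lower at an unadjusted p under 0.05 in limma. BAG3, a stress-induced member tied to HSPB8 and autophagy, read 8.54, 8.87 and 8.62 in PRL-3 arrays, against 8.75, 8.48 and 8.33 in control arrays. The groups overlapped, at a difference of 0.16 (adjusted p = 0.583, limma). BAG1, which also binds BCL2, had the largest difference of the 3, at -0.18 (adjusted p = 0.207, limma), and BAG2, an inhibitor of the ubiquitin ligase CHIP, was at -0.17.

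HSF1 itself read 7.96, 8.25 and 7.95 in PRL-3 arrays, against 8.21, 8.08 and 7.70 in control arrays. It overlapped fully, with a 95% interval of -0.27 to 0.38 (adjusted p = 0.895, limma), and its protein and activity were not measured. HSBP1, which binds HSF1 trimers and restrains them, read 8.72, 8.67 and 8.80 in PRL-3 arrays, against 8.53, 8.47 and 8.44 in control arrays. All PRL-3 arrays were higher, at 0.25 ± 0.069 (SE), which did not pass (adjusted p = 0.0763, limma).

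The CCT ring, which folds actin and tubulin, showed no common direction. Of its 7 listed subunits 0 passed in limma and 1 was lower at an unadjusted p under 0.05, and differences ran from -0.15 for CCT3 to 0.19 for CCT4. CCT4 read 9.87, 9.94 and 10.15 in PRL-3 arrays, against 9.75, 9.82 and 9.83 in control arrays. CCT3 read 10.60, 10.63 and 10.57 in PRL-3 arrays, against 10.75, 10.78 and 10.72 in control arrays. Subunits of the same ring were thus separated between groups in opposite directions, each by a difference that did not pass (adjusted p = 0.273 for CCT4 and 0.222 for CCT3, limma). CCT6A, the remaining ubiquitous subunit and no member of the set, differed by 0.11 (adjusted p = 0.658, limma).

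The arrays of a group also differed among themselves. In 9 of the 42 genes control 1 was the highest and control 3 the lowest control array while PRL-3 5 was the highest PRL-3 array, a pattern that 18.5% of all genes share. These were HSPB1, HSPA6, TRAP1, STIP1, CDC37, DNAJB1, BAG3, HSF1 and CCT7. In another 12 the order was reversed at all these places, against 15.4% of all genes: CRYAB, HSPA4, HSPA4L, HSPH1, HSP90AA1, PTGES3, HSPD1, HSPE1, DNAJA2, DNAJB4, DNAJB6 and CCT5. Over all genes 1 direction held 0.639 of the within-group variance, and its part in these differences was not tested as a cause. Without control 1 and PRL-3 5, CRYAB differed by 2.03 and HSPA6 by 1.46.

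**Figure D4:**
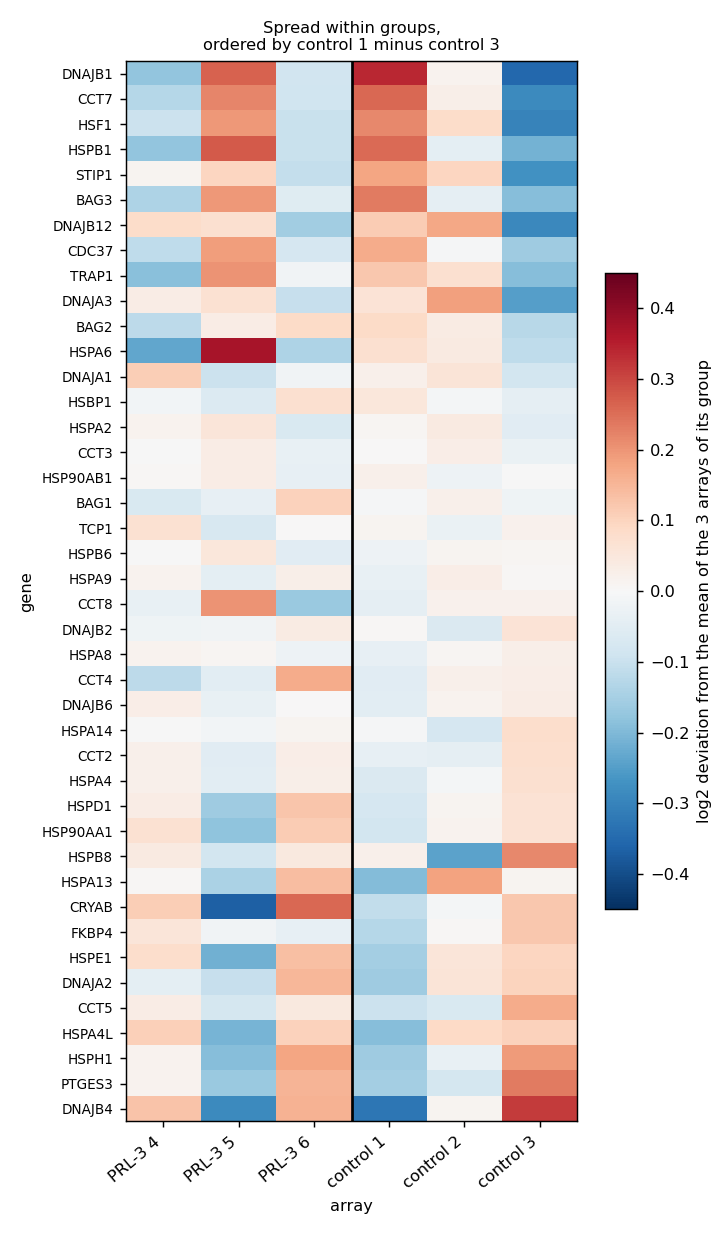
Deviation of each array from the mean of the 3 arrays of its own group (log2, colour) for 42 chaperone genes, PRL-3 arrays left and control arrays right, ordered by control 1 minus control 3. DNAJB1, CCT7, HSF1 and HSPB1 at the top run high in PRL-3 5 and control 1, and DNAJB4, PTGES3, HSPH1 and HSPA4L at the bottom run low in the same arrays.

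Other chaperone genes, listed by function outside the set, had 6 rises (8.82%) and 3 falls (4.41%) among 68 measured in limma, where all genes gave 4.58% and 3.11%. They too were listed with earlier results of these data known, so these counts are a description and not independent evidence. Leaving out 1 array cut these counts, to 3 and 1 without control 1, 2 and 0 without control 2, and 4 and 2 without control 3. They were 2 and 1 without PRL-3 4, 5 and 2 without PRL-3 5, and 2 and 1 without PRL-3 6. Over the same 6 fits all genes gave 388 to 792 higher and 178 to 747 lower, against 842 and 571 with all arrays. SGTB, a small cochaperone of HSP70, read 7.30, 7.32 and 7.35 in PRL-3 arrays, against 6.71, 6.47 and 6.57 in control arrays. It rose by 0.74 ± 0.078 (SE, adjusted p = 0.00153), and SUGT1, an HSP90 partner at kinetochores, rose by 0.60 ± 0.087 (SE, adjusted p = 0.00582, limma). BAG5, another nucleotide exchange factor, was the 1 of 22 in this list of cochaperones that fell, at -0.44 ± 0.074 (SE, adjusted p = 0.0101, limma), and it lost its call without control 2 (adjusted p = 0.0617).

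Prefoldin, which delivers new actin and tubulin to CCT, rose in 2 of 6 subunits and fell in 0. Over all genes 4.58% rose and 3.11% fell, which also stands behind the J-domain counts below. PFDN4 rose by 0.42 (adjusted p = 0.0129) and PFDN2 by 0.28 (adjusted p = 0.041, limma), and PFDN2 lost its call whichever array was left out, PFDN4 in 3 of 6 such fits. Further J-domain proteins rose in 2 of 31, DNAJC1 of the endoplasmic reticulum (0.38) and DNAJC12 (0.31), and fell in 2, DNAJC11 of mitochondria (-0.46) and DNAJC13 of endosomes (-0.32). Their adjusted p ran from 0.0175 to 0.0305 in limma, and DNAJC12 and DNAJC13 lost their calls whichever array was left out, DNAJC1 and DNAJC11 in 4 of 6 such fits. Of 7 further heat shock and crystallin genes 0 passed in limma and 1 was lower at an unadjusted p under 0.05.

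Of 9 stress-responsive genes that are not chaperones, RGS2, a brake on G protein signalling, rose by 1.23 ± 0.075 (SE, adjusted p = 0.000135, limma) and 0 fell. The shares over all genes were 4.58% higher and 3.11% lower. RGS2 read 7.83, 7.80 and 7.84 in PRL-3 arrays, against 6.56, 6.51 and 6.71 in control arrays, with a wide gap between the groups. HMOX1, the stress-induced haem oxygenase, was at 0.32 (adjusted p = 0.0506), and ATF3, FOS and PPP1R15A were at 0.21 to 0.24. Below 0 were SQSTM1, an autophagy receptor, at -0.19, the polyubiquitin gene UBB at -0.12, DEDD2 at -0.10 and IER5 at -0.01, and none of these 8 passed in limma. All PRL-3 arrays lay above all control arrays in 5 of the 9, against 12.1% of all genes. The list was made with earlier results of these data known, so this count is a description and not evidence of a stress response, which was not tested.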

How the data were processed

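TF-1 cells with human PRL-3 or a control vector were measured on a whole-transcript array, 3 arrays per group. Per the labels' protocols, RNA was taken with a Qiagen kit and labelled with Nugen kits. The authors deposited 1 intensity per probe set and array, positive and on a linear scale, for 28869 probe sets. How they summarised, corrected and normalized the values is not given in the sources used here; similar medians and quartiles led to taking them as normalized. A step that equalises arrays removes changes shared by most genes.

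The log2 of each intensity was taken with no offset. Gene names came from GEO's platform annotation: 19310 probe sets had 1 symbol, 1752 several and 7807 none here. The brightest single-symbol probe set stood for each of 18377 genes. The 2 groups were set against each other by lmFit and eBayes of limma 3.58.1 (R 4.3.3), two-sided, with Benjamini-Hochberg adjustment over all genes at 0.05. Genes on shared probe sets were taken from a fit over all probe sets. Errors after a level are SD and after a difference limma's SE. The test was tried on simulated data. Precision is limited by having 3 arrays per group.

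The members and gene lists were chosen with earlier results of these data known. Named were a set of main chaperones whatever their result, all members past the threshold, the most changed member of each role, and up to 4 called genes of each other list; the rest are given by range. The neighbours of HSPA6 and the fit over all probe sets were added after seeing the data. Figures were drawn with matplotlib 3.10.9. Alternatives are given in the closing section.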

Additional observations from a re-analysis of the deposited data

How the results depend on the processing

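CRYAB stayed above 0 in every alternative that kept it, at 1.77 to 2.08, and so did HSPA6 (1.42 to 1.72) and HSPA4L (0.47 to 0.67). Quantile normalization, a common median, an intensity trend with robust variances, averaging probe sets within genes, all single-symbol probe sets as features and a limit to genes above the lower quartile each left 3 members, CRYAB counted, higher and 0 lower, and a limit to genes above the median level, which drops CRYAB, left 2 and 0. Array weights gave 8 and 6 members, 17 and 10 of the 77 other chaperone and stress-responsive genes, and 2122 and 2303 of all genes, higher and lower in that order. The within-group direction as a covariate gave 8 and 1, 16 and 9, and 1976 and 1805. Both settings estimate their terms on the array spread that they then adjust for. An unequal-variance test rests each gene on its own 6 values. It gave 0 and 0 members, 0 and 0 of the 77 others, and 7 and 4 of all genes. At an unadjusted p under 0.05 it gave 5 and 3 members (11.9% and 7.14%) and 11 and 6 of the others (14.3% and 7.79%). All genes gave 7.57% and 6.92% by that rule. HSPA6 and HSPA4L were not called by the unequal-variance test (adjusted p = 0.187 and 0.235). Without control 1 and PRL-3 5, HSPE1 was added to the members called higher (adjusted p = 0.0434, limma). Fewer of the 77 others were called higher there than with all 6 arrays. Leaving out 1 array, with fewer samples, gave 2 to 4 members higher and 0 lower (1 to 6 lower at an unadjusted p under 0.05), 3 to 6 of the 77 others higher and 0 to 2 lower (2 to 5 and 0 to 2 of the 68 that are chaperone genes), and 388 to 792 of all genes higher and 178 to 747 lower. For the unadjusted count in these fits no share of all genes was taken. The median of the members ran from 0.024 to 0.079. Wherever a fit kept CRYAB, it is counted among the members in all these figures. Its rise brought the set together, so they are a description and not independent evidence. HSPE1, HSBP1, HSPA8 and the brightest HSPA1A and HSPA1B probe set passed with array weights and with the covariate, BAG1, HSPD1 and FKBP5 with array weights alone (adjusted p = 0.0392, 0.0459 and 0.0254), and DNAJB1 (0.00103) and the other 4 HSPA1A and HSPA1B probe sets (0.00464 to 0.0358) with the covariate alone, and PFDN2 was lost under quantile normalization (0.0507) and, with DNAJC13, under the intensity trend (0.0942 and 0.0666). No paired analysis was possible because the groups share no replicate numbers. Low intensities have no known floor.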
